A study of Rattus norvegicus with 12 samples.

Results

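The genes described here are 40 genes of the lysosome, the acid compartment in which cells break down protein, sugar chains and lipid. They were chosen by symbol and fall into 6 roles: 12 proteases (the cathepsins and legumain), 10 hydrolases of sugar chains and lipids, 3 activator and granulin precursors, 5 membrane proteins, 8 subunits or accessory proteins of the proton pump, and 2 transcription factors. The count table held a row for 39 of the 40 among 37209 gene symbols. Ctso was not analysed here, and 34 members had enough counts to be tested.

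RNA was sequenced from the brains of Sprague Dawley rats at postnatal day 21, with 3 libraries in each of 4 groups. One group had a stroke made by occluding the middle cerebral artery (MCAO, which blocks the main artery of the cerebral hemisphere) with shams coded LN, and another had pontine infarction (a stroke of the middle brainstem) with shams coded PN. Each stroke was compared with the shams whose code shares its first letter. The labels give brain as the tissue, without a region or the interval since the stroke. They mention 3 rats for each stroke and do not say which rats the libraries come from, so p-values measure the spread between these libraries. One MCAO column carries a number that is in no sample title and is called the unnumbered MCAO library.

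Lysosomal hydrolases are made as inactive precursors and work at acid pH, which a vacuolar proton pump (V-ATPase) maintains. The pump has a membrane sector, V0, and a cytosolic sector that splits ATP, V1. In brain, neurons depend on lysosomes for the slow turnover of proteins and membranes, while microglia and macrophages use them to digest engulfed debris. TFEB, a basic helix-loop-helix factor, binds a palindromic E-box element found near many lysosomal genes.

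In all, 4 members could not be assessed because they were listed at 0 in every library: Gla (alpha-galactosidase A), Lamp2 (a major lysosomal membrane glycoprotein), and Atp6ap1 and Atp6ap2 (accessory proteins of the proton pump). All 4 lie on the X chromosome. Of 606 protein-coding symbols that RefSeq places on X, 591 (97.5%) had 0 counts in all 12 libraries, against 1.82% to 13% on the 20 numbered chromosomes. Syp, a synaptic vesicle protein, is X-linked and was also listed at 0. A value of 0 for these genes therefore says nothing about their level, and the cause was not tested. Atp6v0d2, a pump subunit known from osteoclasts and macrophages, is not X-linked, and it had 1 count over the MCAO libraries, 0 over sham LN, 0 over pontine infarction and 1 over sham PN.

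**Figure D1:**
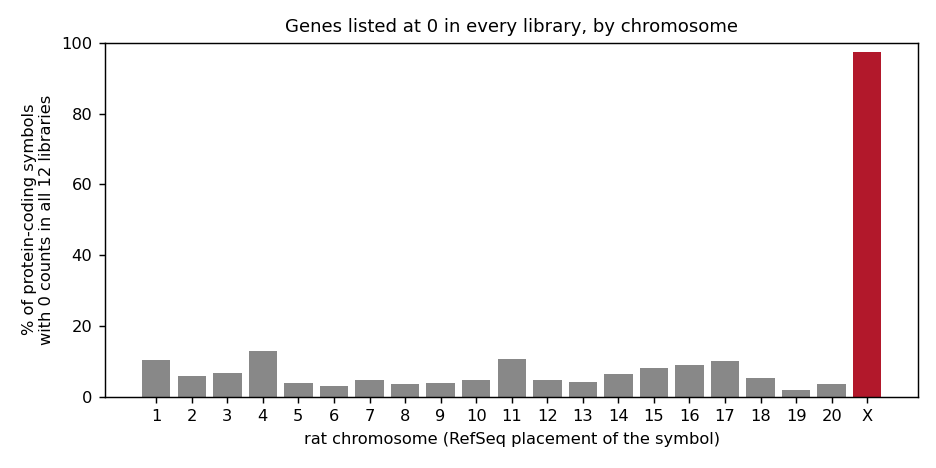
Percent of protein-coding gene symbols (y axis) with 0 counts in all 12 libraries, for each rat chromosome (x axis), placed by RefSeq. The bar for X stands at 97.5%, and the numbered chromosomes lie between 1.82% and 13%.

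The libraries held 19805815 to 40400676 counts. Values are normalised CPM, that is counts divided by the library total after trimmed-mean scaling and put on a common scale of library size. They are not divided by transcript length, so levels are compared between groups and not between genes. Neuron markers summed to 3206 to 5510 CPM after MCAO, 5178 to 6720 in sham LN, 2742 to 4441 after pontine infarction and 5407 to 5986 in sham PN, so neuronal RNA was found in every library as the brain label states. Markers of myeloid activation passed the test in 8 of 12 genes after MCAO and in 11 of 12 after pontine infarction, all higher. Neutrophil and monocyte markers passed in 10 of 10 tested genes after MCAO and in 6 of 10 after pontine infarction, all higher. Several genes of both lists, such as Cxcr2, Slpi, Clec7a and Itgax, were near 0 in all shams. Cxcr2 had 0 or 1 count in each sham library, and Clec7a had 1 to 8. Such genes were kept for testing only through the stroke libraries, so their calls are no independent support. Of 9 oligodendrocyte markers tested, 5 fell after MCAO and 2 after pontine infarction. Of 10 astrocyte markers, 1 rose and 5 fell after MCAO, and 1 rose after pontine infarction. Resting microglia markers passed in 1 gene higher and 1 lower of 9 after MCAO and in 1 higher after pontine infarction. The gene higher after MCAO, Siglech, had 0 counts in every sham library and was kept only through the stroke libraries. The lower gene was Tmem119 (log2 change -1.84). The median log2 change of the 9 was -0.82 after MCAO, with 2 positive, and 0.22 after pontine infarction, with 8 positive. Among neuron markers 1 of 9 rose after MCAO and 0 passed after pontine infarction, and 0 of 9 endothelial and 0 of 2 red cell markers passed after either stroke. In the same test 12.5% of all tested genes rose and 6.07% fell after MCAO. After pontine infarction 3.21% rose and 0.87% fell. The counts of these marker lists are to be read against those shares, and the single astrocyte and neuron markers that rose after MCAO are near the share. In bulk tissue, fewer cells of a type and less RNA per cell cannot be told apart, and the same holds for more cells and more RNA per cell.

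Summed together, the lysosomal genes took a larger part of the counts after both strokes. In MCAO replicate 1, MCAO replicate 2 and the unnumbered MCAO library they made up 1.4%, 0.812% and 0.971% of all counts, against 0.682%, 0.698% and 0.668% in sham LN replicates 1 to 3. In pontine infarction replicates 1 to 3 they made up 1.11%, 1.11% and 1.99%, against 0.842%, 0.87% and 0.89% in sham PN replicates 1 to 3. At both sites every stroke library lay above every sham library. This total weighs abundant genes most, and not every role followed it. The hydrolases of sugar chains and lipids summed to 381.7 to 566.8 CPM after MCAO against 429.4 to 471.2 in sham LN. After pontine infarction they summed to 733.5 to 934.2 CPM against 750.7 to 862 in sham PN, so the ranges overlapped at both sites. The sums of the proton pump are given below.

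After MCAO, 9 of 34 tested members (26.5%) rose and 0 fell, where 12.5% of all 17008 tested genes rose and 6.07% fell (edgeR quasi-likelihood test, adjusted p under 0.05). The 9 were the proteases Ctsb, Ctsc, Ctsl, Ctsz and Lgmn, the ceramidase Asah1, the progranulin gene Grn, the membrane protein Cd63 and the transcription factor Tfec. The median log2 change was 0.50 over the members and 0.00 over all tested genes. In 16 members (47.1%) the 3 MCAO libraries lay above all 3 sham LN libraries, against 20.4% of all tested genes, and in 0 they lay below, against 18.7%. Tfec passed the filter on low counts only through the stroke libraries, and without it 8 of 33 members rose. The count of members depended on single libraries, with 4 left without MCAO replicate 1, sham LN replicate 1 or sham LN replicate 3, 6 without the unnumbered MCAO library or sham LN replicate 2, and 10 without MCAO replicate 2. Ctsc, Ctsz, Cd63 and Tfec passed whichever of the 6 libraries was left out.

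After pontine infarction, 8 of 34 tested members (23.5%) rose and 0 fell, where 4.08% of all tested genes passed, 3.21% higher and 0.87% lower. These were Ctsb, Ctsc, Ctsz, Lgmn, Grn, Cd63, Tfec and the membrane protein Laptm5. The median log2 change was 0.69 over the members and -0.08 over all tested genes. In 15 members (44.1%) the 3 pontine infarction libraries lay above all 3 sham PN libraries, against 13.3% of all tested genes. In 3 members they lay below them, against 18.7% of all tested genes. Without Tfec 7 of 33 members rose. Leaving out 1 library changed the count to between 0 and 10: it was 0 without sham PN replicate 2 or 3, and 1, Ctsz, without sham PN replicate 1 or pontine infarction replicate 3. No member passed in all 6 of these fits.

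Each stroke has its own shams, so the 2 sets of values share no library. Their tests come from 1 model over 12 libraries with a shared estimate of the spread, so the calls are not independent. In edgeR 7 members (20.6%) rose after both strokes, where 2.29% of all tested genes did. Tfec is among the 7 and was kept for testing only through the stroke libraries, so its calls are no independent support. A further 2 rose after MCAO only (Ctsl and Asah1), 1 after pontine infarction only (Laptm5) and 24 after neither. The log2 change was positive after both strokes in 23 members (67.6%), against 32% of all tested genes. It was negative after both in 5 (14.7%), against 40.2%, and of opposite sign in 6.

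**Figure D2:**
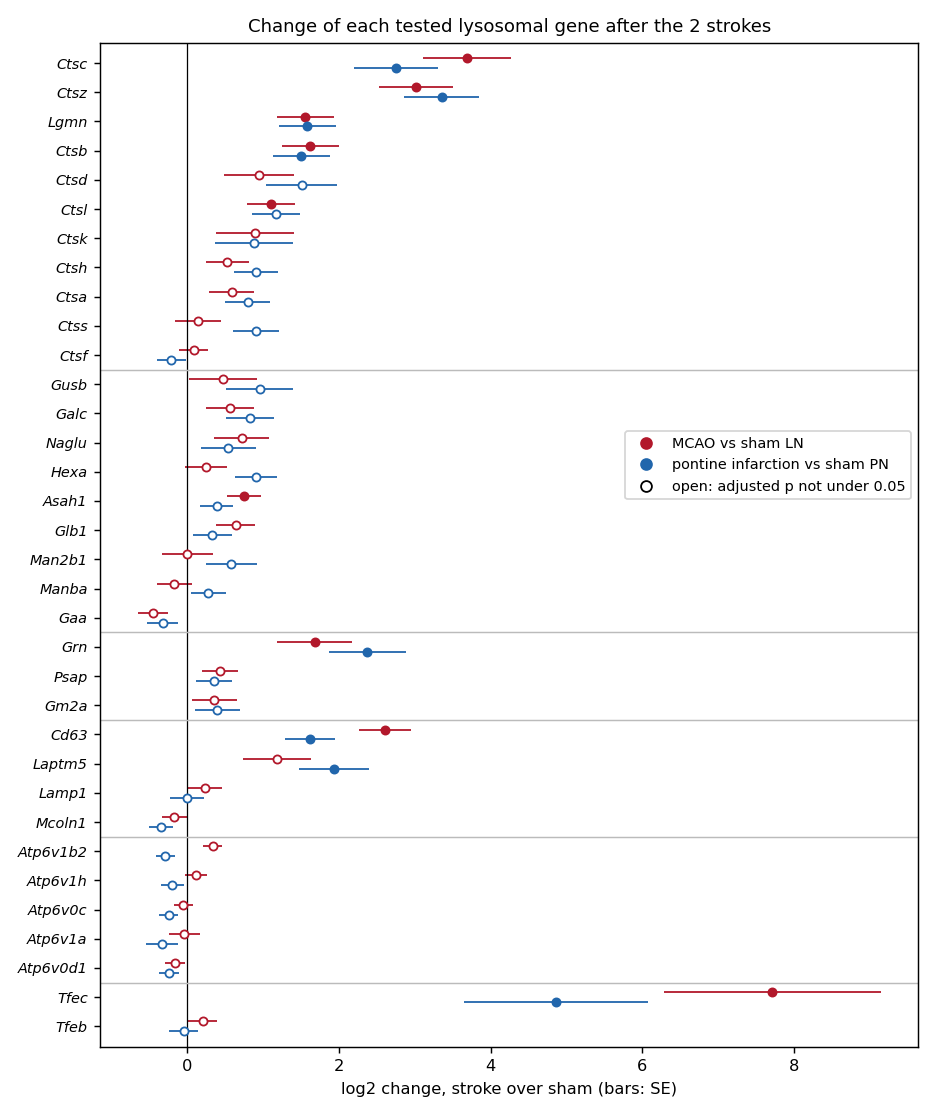
Log2 change of each tested member (rows, by role) after MCAO against sham LN and after pontine infarction against sham PN (x axis, log2), with bars of 1 SE from edgeR and open points where the adjusted p was not under 0.05. Ctsc, Ctsz, Cd63 and Tfec lie farthest to the right after MCAO, and the 5 pump subunits lie near 0.

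Libraries of one stroke group differed in how far their members stood from the shams. The median member lay 0.90, 0.17 and 0.37 log2 units above the sham LN mean in MCAO replicate 1, MCAO replicate 2 and the unnumbered MCAO library. It lay 0.01, 0.31 and 1.30 above the sham PN mean in pontine infarction replicates 1 to 3. MCAO replicate 1 was the highest of its group in 27 of 34 members and pontine infarction replicate 3 in 29 of 34. Without MCAO replicate 1 the members' median change was 0.15, and without pontine infarction replicate 3 it was 0.17. The sum of the myeloid activation markers was 1827, 677 and 1275 CPM in MCAO replicate 1, MCAO replicate 2 and the unnumbered MCAO library, against 187 to 230 CPM in sham LN. It was 1803, 1174 and 4691 CPM in pontine infarction replicates 1 to 3, against 322 to 352 CPM in sham PN. In each stroke group the library with the highest sum also had the highest member median. In pontine infarction replicates 1 and 2 the order differed, since replicate 1 had the higher sum and the lower median. Neutrophil and monocyte markers summed to 3444, 139 and 1132 CPM after MCAO against 7.30 to 8.86 in sham LN, in the same order of libraries. After pontine infarction the order differed, and they summed to 1151, 116 and 118 CPM in pontine infarction replicates 1 to 3 against 4.92 to 8.43 in sham PN. Much of these sums came from a single gene, Lcn2. It had 2359, 32.8 and 427.5 CPM after MCAO and 871, 88.0 and 57.9 CPM after pontine infarction, in the same orders of libraries. Much of the myeloid activation sum after pontine infarction came from Spp1 and Gpnmb. In pontine infarction replicates 1 to 3, Spp1 had 861, 278 and 1591 CPM and Gpnmb had 311, 345 and 1593 CPM. Spp1 had 132, 106 and 125 CPM in sham PN, and 0.790, 0.889 and 0.459 CPM in sham LN. The sums are marker RNA and not counts of cells, and the part of myeloid cells in the members' changes was not tested.

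**Figure D3:**
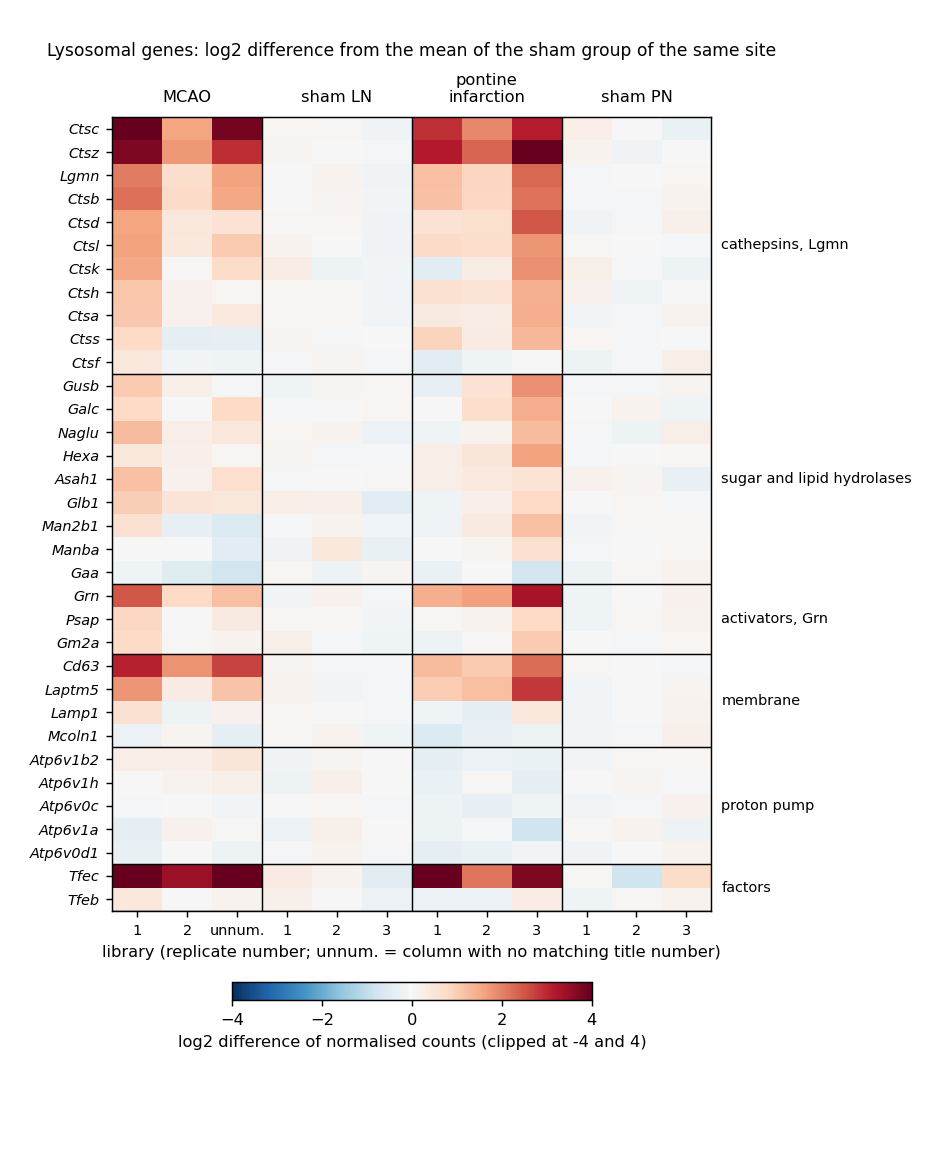
Log2 difference of each tested member (rows, by role) from the mean of its own shams in each of the 12 libraries (columns), as colour clipped at -4 and 4. MCAO replicate 1 and pontine infarction replicate 3 are the most strongly raised columns, and the pump rows stay near 0.

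Cathepsins are proteases that cut proteins in the lysosome, and legumain cuts after asparagine and also processes cathepsins. Of 11 tested, 5 rose after MCAO (median log2 change 0.95) and 4 after pontine infarction (median 1.17). Of all tested genes 12.5% rose after MCAO and 3.21% after pontine infarction. Their summed level was 5029, 2053 and 3049 CPM in MCAO replicate 1, MCAO replicate 2 and the unnumbered MCAO library, against 1510, 1525 and 1358 CPM in sham LN replicates 1 to 3. After pontine infarction it was 3622, 3081 and 8311 CPM, against 1845, 1874 and 2142 CPM in sham PN replicates 1 to 3. The groups did not overlap at either site.

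Ctsc encodes cathepsin C, a dipeptidyl peptidase that activates serine proteases of granulocytes. It stood at 101, 14.2 and 67.0 CPM in MCAO replicate 1, MCAO replicate 2 and the unnumbered MCAO library, against 4.95, 4.89 and 4.25 CPM in sham LN replicates 1 to 3. MCAO replicate 2 was the lowest stroke library and still stood above all shams (log2 change 3.69 ± 0.58 SE, edgeR adjusted p = 0.00301). After pontine infarction it stood at 58.2, 28.9 and 68.5 CPM in replicates 1 to 3, against 9.11, 7.67 and 6.32 CPM in sham PN replicates 1 to 3. The groups did not overlap (log2 change 2.75 ± 0.56, edgeR adjusted p = 0.0222).

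Ctsz, cathepsin Z, is a carboxypeptidase abundant in myeloid cells, and its locus overlaps that of Nelfcd. It measured 234, 58.4 and 136 CPM after MCAO, in the order replicate 1, replicate 2 and the unnumbered library, against 18.8, 17.2 and 16.7 CPM in sham LN. The lowest MCAO library lay above the highest sham (log2 change 3.02 ± 0.49, edgeR adjusted p = 0.00348). After pontine infarction it measured 187, 105 and 350 CPM, against 23.2, 19.0 and 20.6 CPM in sham PN. Every infarct library exceeded every sham there too (log2 change 3.35 ± 0.50, edgeR adjusted p = 0.00853).

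Ctsb, cathepsin B, an endopeptidase and the cathepsin with the highest mean count, read 2223, 816 and 1403 CPM after MCAO against 487, 513 and 442 CPM in sham LN. All MCAO libraries were above all shams (log2 change 1.62 ± 0.37, edgeR adjusted p = 0.0143). After pontine infarction Ctsb read 1490, 1156 and 2965 CPM against 621, 634 and 719 CPM in sham PN. Replicate 3 was the highest, and the groups were apart (log2 change 1.51 ± 0.37, edgeR adjusted p = 0.0463).

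Lgmn, legumain, had 393, 153 and 284 CPM after MCAO against 93.7, 103 and 84.7 CPM in sham LN. The groups were apart (log2 change 1.56 ± 0.37, edgeR adjusted p = 0.0164). It had 321, 250.4 and 682 CPM after pontine infarction against 132, 137 and 148 CPM in sham PN. The groups were apart again, with replicate 3 highest (log2 change 1.59 ± 0.37, edgeR adjusted p = 0.0383).

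Ctsl, cathepsin L, rose after MCAO (log2 change 1.11 ± 0.31, edgeR adjusted p = 0.0314) and lost the call in 5 of 6 fits without 1 library. After pontine infarction its change was 1.17 ± 0.31 and did not pass (edgeR adjusted p = 0.0581), but it passed in DESeq2 (adjusted p = 0.00464), in edgeR with no filter on low counts (adjusted p = 0.0252) and without pontine infarction replicate 2 (adjusted p = 0.0357). Ctsd, the aspartic protease cathepsin D, did not pass in edgeR at either site, with log2 changes of 0.95 after MCAO and 1.51 after pontine infarction. It passed after pontine infarction in DESeq2 (adjusted p = 0.0112) and in edgeR without pontine infarction replicate 2 (adjusted p = 0.0477). Ctsd read 736, 771 and 2772 CPM after pontine infarction against 452, 474 and 578 CPM in sham PN, so replicate 3 stood far above the other 2. Ctss, cathepsin S, a protease of antigen-presenting cells that microglia express, had log2 changes of 0.14 after MCAO and 0.91 after pontine infarction, neither passing in edgeR. Ctsa, Ctsf, Ctsh and Ctsk did not pass in edgeR, and ranged from 0.09 to 0.90 after MCAO and from -0.21 to 0.91 after pontine infarction. In DESeq2, Ctss (adjusted p = 0.0358) and Ctsh (adjusted p = 0.0254) passed after pontine infarction.

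Of the hydrolases of sugar chains and lipids, 1 of 9 tested rose after MCAO (median log2 change 0.47), near the 12.5% of all tested genes. After pontine infarction 0 of 9 rose in edgeR (median 0.54), where 3.21% of all tested genes did. Asah1, acid ceramidase, had 101, 49.3 and 69.8 CPM after MCAO against 41.5, 44.1 and 45.3 CPM in sham LN. The groups were apart, though MCAO replicate 2 lay close to the shams (log2 change 0.75 ± 0.22, edgeR adjusted p = 0.0396), and the call was kept in 1 of 6 fits without 1 library. After pontine infarction Asah1 did not pass (log2 change 0.39 ± 0.22). Gaa, the alpha-glucosidase that degrades glycogen, has the highest mean count of this role. It had 231, 189 and 158 CPM after MCAO against 279, 227 and 284 CPM in sham LN, and 447, 532 and 322 CPM after pontine infarction against 474, 561 and 594 CPM in sham PN. The groups overlapped at both sites, and the log2 changes of -0.45 and -0.32 did not pass. The other 7 tested (Galc, Glb1, Gusb, Hexa, Man2b1, Manba and Naglu) ranged from -0.17 to 0.72 after MCAO and from 0.28 to 0.96 after pontine infarction. At an unadjusted edgeR p under 0.05, Asah1 and Glb1 were higher and Gaa lower after MCAO, and Hexa, a subunit of beta-hexosaminidase, and Galc were higher after pontine infarction. Hexa passed there in DESeq2 (adjusted p = 0.022).

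Activator precursors supply cofactors to the lipid hydrolases. Psap, prosaposin, the source of the saposins, had 3390, 1914 and 2497 CPM after MCAO against 1986, 2001 and 1800 CPM in sham LN, and 2174, 2332 and 3640 CPM after pontine infarction against 1866, 2174 and 2314 CPM in sham PN. The groups overlapped at both sites and neither change passed (log2 changes 0.43 and 0.36). Gm2a, the GM2 ganglioside activator, did not pass either (0.36 and 0.40).

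Grn encodes progranulin, which is delivered to lysosomes and cut into granulins. It read 360, 112 and 148 CPM after MCAO against 59.7, 71.6 and 61.7 CPM in sham LN. The groups were apart, with replicate 1 far above the rest (log2 change 1.68 ± 0.50, edgeR adjusted p = 0.0373), and the call was kept in 1 of 6 fits without 1 library. After pontine infarction it read 208, 235 and 736 CPM against 67.8, 74.4 and 85.6 CPM in sham PN. Every infarct library exceeded every sham (log2 change 2.37 ± 0.51, edgeR adjusted p = 0.0268).

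Among 4 tested membrane proteins, 1 rose after MCAO and 2 after pontine infarction, where 12.5% and 3.21% of all tested genes rose. With 4 genes the count after MCAO cannot be told from that share. Cd63, a tetraspanin of late endosomes and lysosomes whose locus overlaps that of Rdh5, had 493, 204 and 380.4 CPM after MCAO against 63.7, 56.8 and 55.9 CPM in sham LN. The lowest MCAO library lay far above the highest sham (log2 change 2.61 ± 0.34, edgeR adjusted p = 0.00179). It had 293, 254 and 573 CPM after pontine infarction against 126, 121 and 118 CPM in sham PN. These groups were apart as well (log2 change 1.62 ± 0.33, edgeR adjusted p = 0.0230).

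Laptm5, a lysosomal membrane protein of blood and immune cells, had 73.8, 85.3 and 264 CPM after pontine infarction against 34.3, 36.6 and 39.6 CPM in sham PN. The groups were apart (log2 change 1.94 ± 0.46, edgeR adjusted p = 0.0390). After MCAO it had 116, 42.3 and 74.4 CPM against 37.2, 31.7 and 32.9 CPM in sham LN, apart but not passing (log2 change 1.19 ± 0.45, edgeR adjusted p = 0.0835). It passed after MCAO in DESeq2 (adjusted p = 0.0409) and in edgeR without MCAO replicate 2 (adjusted p = 0.0305). Lamp1, a structural glycoprotein of the lysosomal membrane, had 658, 371 and 485 CPM after MCAO against 451, 431 and 410.1 CPM in sham LN, and 618, 549 and 931 CPM after pontine infarction against 643, 699 and 764 CPM in sham PN. The groups overlapped at both sites (log2 changes 0.23 and -0.01, neither passing). Mcoln1, the calcium channel mucolipin, had log2 changes of -0.17 and -0.34, neither passing.

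**Figure D4:**
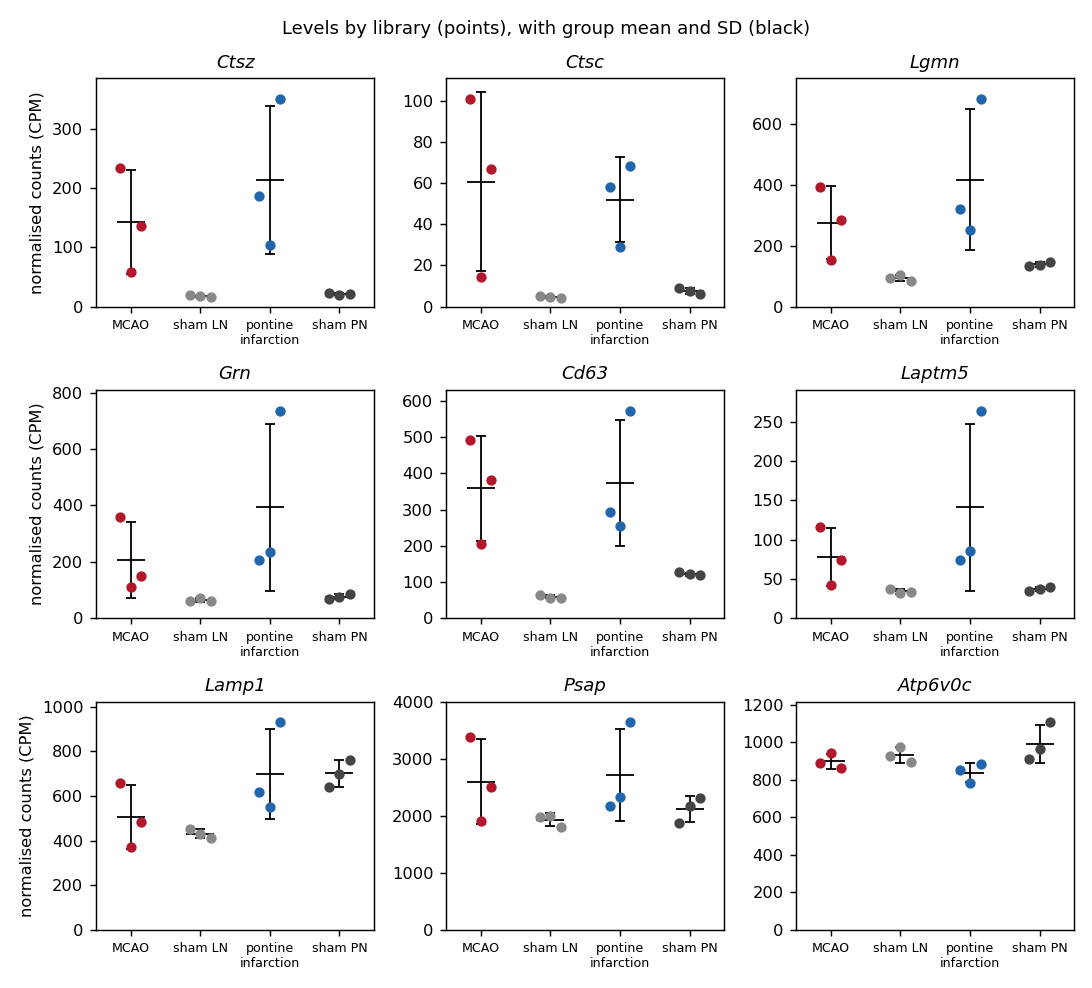
Normalised counts (CPM, y axis) in each library (points) for 9 members, by group (x axis), with the group mean and SD in black (n = 3). The stroke libraries of Ctsz, Ctsc, Lgmn, Grn, Cd63 and Laptm5 lie above their shams and are more spread than the shams.

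Of the 5 tested proton pump subunits, 0 passed after either stroke in edgeR. Of all tested genes 12.5% rose and 6.07% fell after MCAO, and 3.21% rose and 0.87% fell after pontine infarction. These 5 genes are too few to tell 0 from those shares. Atp6v1b2 alone had an unadjusted edgeR p under 0.05, 0.0219 after MCAO and 0.0440 after pontine infarction, and it passed after MCAO in DESeq2 (adjusted p = 0.049). The median log2 change of the subunits was -0.04 after MCAO (range -0.16 to 0.33) and -0.24 after pontine infarction (range -0.33 to -0.19). Atp6v0c, the proton-carrying ring subunit of V0, had 890, 944 and 865 CPM after MCAO against 926, 978 and 896 CPM in sham LN, groups that overlapped. It had 853, 781 and 884 CPM after pontine infarction against 909, 962 and 1107 CPM in sham PN, all below the shams. The log2 change of -0.24 missed the threshold (edgeR adjusted p = 0.286). Atp6v0d1, Atp6v1a and Atp6v1h, the other V0 and V1 subunits tested, had overlapping groups at both sites.

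Atp6v1b2, a V1 subunit of the brain form of the pump, had estimated changes of opposite sign after MCAO and after pontine infarction. Their difference did not pass (edgeR adjusted p = 0.283). It had 922, 941 and 1078 CPM after MCAO against 702, 844 and 786 CPM in sham LN, and 659, 713 and 699 CPM after pontine infarction against 785, 862 and 878 CPM in sham PN. All MCAO libraries lay above their shams and all pontine infarction libraries below theirs. Over all tested genes, 20.4% lay above after MCAO and 18.7% lay below after pontine infarction. The share of genes that did both was not counted. Neither change passed (log2 0.33 ± 0.13, edgeR adjusted p = 0.0839, and -0.29 ± 0.13, edgeR adjusted p = 0.218). Summed over the 8 listed pump genes, the level was 2617 to 2919 CPM after MCAO against 2495 to 2923 in sham LN, and 2323 to 2394 CPM after pontine infarction against 2657 to 2956 in sham PN.

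Of the 2 transcription factors, Tfeb drives lysosomal genes, and Tfec is its relative known mainly from macrophages. Tfeb had 29.0, 21.8 and 23.8 CPM after MCAO against 24.7, 21.8 and 18.2 CPM in sham LN, and 33.0, 33.2 and 47.8 CPM after pontine infarction against 34.4, 40.6 and 42.8 CPM in sham PN. The groups overlapped at both sites (log2 changes 0.20 and -0.05, neither passing). Tfec had 358, 21 and 106 counts in the MCAO libraries against 2, 1 and 0 in sham LN, and 203, 34 and 68 counts in the pontine infarction libraries against 3, 1 and 7 in sham PN. The groups were apart at both sites. Since Tfec was kept only through the groups where it is high, its edgeR calls are no independent support, and both were lost in limma voom. The ratio of normalised counts was 239 after MCAO (95% counting interval 81.2 to 1160) and 23.6 after pontine infarction (13 to 47.8), where the intervals cover counting error only.

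The element that TFEB binds was looked for in RefSeq promoters of build GRCr8, from 250 bases before to 50 after each gene's start. The motifs were the E-box CACGTG and the longer CLEAR core TCACGTGA, both of which read the same on the 2 strands, and each CLEAR core contains an E-box. Promoters were found for 32 of the 39 members with a row, all but Ctsb, Hexa, Asah1, Psap, Atp6v0d2, Atp6v1b2 and Atp6v1h. The CLEAR core was in 5 of them (15.6%), against 1.48% of the 11027 promoters of tested genes and 0.867% of all 27457. The E-box was in 9 of 32 (28.1%), against 8.82% of tested genes and 6.65% of all. The promoters of 4 of the 5, chosen alphabetically, are printed because they carry the element; the capitals mark the CLEAR core. They belong to a V0 pump subunit, a protease, the galactosylceramidase that degrades myelin lipid, and a membrane protein.
Atp6v0d1, chr19:50357199-50357498, minus strand: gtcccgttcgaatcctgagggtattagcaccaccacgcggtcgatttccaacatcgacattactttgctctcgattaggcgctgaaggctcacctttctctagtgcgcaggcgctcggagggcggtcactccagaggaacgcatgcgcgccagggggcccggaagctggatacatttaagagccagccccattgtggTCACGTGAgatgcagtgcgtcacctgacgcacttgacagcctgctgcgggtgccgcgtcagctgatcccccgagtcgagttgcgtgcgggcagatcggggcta
Ctsd, chr1:206968772-206969071, minus strand: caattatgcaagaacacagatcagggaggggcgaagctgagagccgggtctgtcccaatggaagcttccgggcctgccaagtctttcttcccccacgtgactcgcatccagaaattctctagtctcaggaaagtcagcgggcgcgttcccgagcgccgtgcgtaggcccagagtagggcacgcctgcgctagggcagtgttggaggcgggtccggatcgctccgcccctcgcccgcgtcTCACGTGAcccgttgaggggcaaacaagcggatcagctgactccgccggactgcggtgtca
Galc, chr6:123245510-123245809, minus strand: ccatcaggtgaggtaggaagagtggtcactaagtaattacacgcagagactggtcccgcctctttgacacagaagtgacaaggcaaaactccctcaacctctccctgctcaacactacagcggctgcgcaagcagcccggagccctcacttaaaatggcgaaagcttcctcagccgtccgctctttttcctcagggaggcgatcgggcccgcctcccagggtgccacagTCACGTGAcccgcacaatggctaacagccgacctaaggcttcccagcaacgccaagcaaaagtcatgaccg
Lamp1, chr16:83075014-83075313, minus strand: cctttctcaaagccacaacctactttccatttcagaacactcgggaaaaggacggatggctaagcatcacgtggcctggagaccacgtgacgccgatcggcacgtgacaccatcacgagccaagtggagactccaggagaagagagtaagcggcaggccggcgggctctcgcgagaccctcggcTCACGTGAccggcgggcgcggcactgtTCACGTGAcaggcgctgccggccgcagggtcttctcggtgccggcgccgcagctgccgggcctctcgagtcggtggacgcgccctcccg

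The CLEAR core begins 53 bases before the start in Atp6v0d1, 11 before it in Ctsd, 21 before it in Galc, and 66 and 39 before it in Lamp1. The fifth, Mcoln1, has it at position 3 after the start. In edgeR 0 of these 5 genes passed after either stroke, and in DESeq2 1, Ctsd, passed after pontine infarction. Of all tested genes 12.5% rose after MCAO and 3.21% after pontine infarction in edgeR, so 5 genes are too few to tell 0 from those shares. A match is a description of these letters in these windows, and binding was not measured.

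Other genes of the pathway, listed by symbol, were read beside the members. Of 72 tested, 16 rose and 0 fell after MCAO, where 12.5% of all tested genes rose and 6.07% fell. After pontine infarction 6 rose and 0 fell, where 3.21% of all tested genes rose and 0.87% fell. Both counts of rising genes include Cst7, described under other observations. It was kept for testing only through the stroke libraries, so its calls are no independent support. The counts of the smaller lists below are to be read against the same shares. Among 26 other hydrolases, 6 rose after MCAO and 4 after pontine infarction. Dnase2, the acid DNase, rose by 1.79 log2 units after MCAO and by 2.35 after pontine infarction. Acp5, tartrate-resistant acid phosphatase, rose after pontine infarction by 2.92. Among 16 other membrane proteins, 3 rose after MCAO and 1 after pontine infarction. Cd68, a macrophage membrane protein that is also in the myeloid list, had 118, 6.42 and 35.5 CPM after MCAO against 1.48, 1.04 and 0.918 CPM in sham LN, and 40.5, 22.2 and 124 CPM after pontine infarction against 2.06, 1.36 and 1.29 CPM in sham PN. It rose at both sites, by 5.52 and 5.31 log2 units. Among 14 other pump genes 1 rose after MCAO and 0 after pontine infarction: Tcirg1, the V0 a3 subunit known from osteoclasts and immune cells, rose after MCAO (log2 change 2.20 ± 0.50, edgeR adjusted p = 0.0137). Among 5 other regulators, Mitf and Fnip2 rose after MCAO and none passed after pontine infarction.

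**Figure D5:**
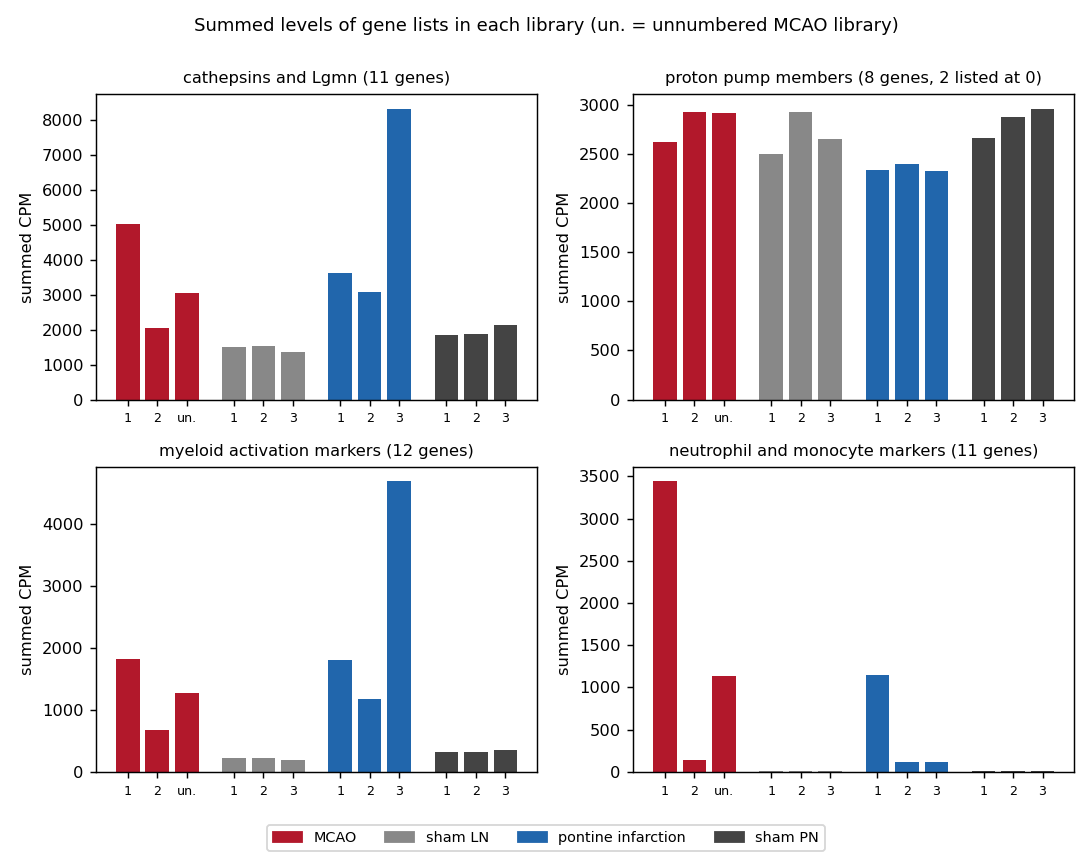
Summed CPM (y axis) of the cathepsins with Lgmn, the pump members, and the myeloid activation and neutrophil and monocyte markers, with 1 bar for each library (x axis). Cathepsin sums are 2053 to 5029 after MCAO against 1358 to 1525 in sham LN, and pump sums overlap between these groups. After pontine infarction cathepsin sums are 3081 to 8311 against 1845 to 2142 in sham PN, and pump sums are 2323 to 2394 against 2657 to 2956.

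The test of whether the 2 strokes changed a gene differently, the MCAO change minus the pontine infarction change, gave 0 of 34 members and 0% of all tested genes in edgeR. At an unadjusted p under 0.05 it gave 1 member, Atp6v1b2, and 1826 genes. DESeq2 gave 238 genes and 0 members, and limma voom gave 0 genes. The 95% intervals of the difference were wide: Ctsc 0.94 (-0.70 to 2.57), Ctsz -0.33 (-1.75 to 1.08), Grn -0.69 (-2.19 to 0.81) and Laptm5 -0.75 (-2.12 to 0.63). The interval of Cd63 reached just below 0 (0.99, interval -0.01 to 1.99, edgeR adjusted p = 0.468). The calls after 1 stroke only are not shown to differ between strokes.

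The 2 sham groups were also compared, since they are the baselines of the 2 strokes. In sham LN against sham PN, 5 of 34 members (14.7%) were lower and 0 higher, where 11.3% of all tested genes were lower and 10% higher. The members' median log2 difference was -0.41, against -0.11 over all tested genes. In 20 members (58.8%) the sham LN libraries lay below all sham PN libraries, against 29.2% of all tested genes, and in 1, Ctsk, above them, against 21.7%. In either direction 50.9% of all tested genes did not overlap. Gaa (-1.04 ± 0.20, edgeR adjusted p = 0.00349), Glb1 (-1.24 ± 0.26, edgeR adjusted p = 0.00554) and Tfeb (-0.86 ± 0.19, edgeR adjusted p = 0.00764) were lower and passed whichever library was left out. Glb1, the beta-galactosidase, had 18.8, 18.6 and 11.8 CPM in sham LN against 38.0, 41.2 and 37.0 CPM in sham PN, and the groups were apart. Lamp1 (-0.71 ± 0.23, edgeR adjusted p = 0.0460) and Cd63 (-1.05 ± 0.33, edgeR adjusted p = 0.0406) were lower and lost the call whichever library was left out, so that 3 members passed in each of those 6 fits. Fitted on the sham groups alone, 17 of 33 members passed (51.5%), where 39.9% of all genes tested in that fit passed. Oligodendrocyte markers summed to 15400 to 21850 CPM in sham LN against 42620 to 53220 CPM in sham PN, with 8 of 9 lower, and their part in the members' difference was not tested.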

How the data were processed

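The authors deposited a table of raw read counts per gene symbol for 12 libraries, and the submitters' processing notes name HISAT2 and the rat build Rnor_6.0. The counting program and strand setting are not stated by the labels or notes, so reads of 16 members that overlap another gene, such as Ctsz, Psap and Cd63, cannot be split by strand. Counts were fitted in R 4.3.3 with edgeR 4.0.16 (trimmed-mean scaling, quasi-likelihood test, two-sided, Benjamini-Hochberg adjustment over all 17008 genes kept by a minimum count of 10 and a total of 15, 1 model over 12 libraries). Alternatives used DESeq2 1.42.0, limma 3.58.1, other scaling and filters, the compared groups alone, a replicate block, and leaving out each library. The test was checked on simulated data. Replicate libraries differed by more than sampling noise, and none was merged. Values in each library are given for the 3 largest passing members of each role and the member with the highest mean, others by range. The members and lists were chosen with earlier results of these data known.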

Additional observations from a re-analysis of the deposited data

Results flagged for a closer look

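The MCAO change of Atp6v1b2, a V1 subunit of the proton pump, minus its pontine infarction change was 0.62 on the log2 scale (95% interval 0.23 to 1.01). It drew attention because all 3 MCAO libraries lay above all 3 sham LN libraries while all 3 pontine infarction libraries lay below all 3 sham PN libraries. Over all tested genes, 20.4% lay above their shams after MCAO and 18.7% lay below theirs after pontine infarction. The share of genes that did both was not counted. Atp6v1b2 was picked from the members by these same values, and the interval is not adjusted for that. The test of the difference gave an unadjusted edgeR p of 0.00488 and an adjusted p of 0.283, so it did not pass over all tested genes.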

How the results depend on the processing

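After MCAO the count of changed genes (3163) was 1354 with the compared groups alone and 130 with the replicate block, and 1136 to 6170 without 1 library. The count of members (9) was 0 with the block and 4 to 10 without 1 library. After pontine infarction the count of genes (694) was 1738 in DESeq2, 315 in limma voom, 105 with the block and 6 to 965 without 1 library. The count of members (8) was 13 in DESeq2, 3 in limma voom, 0 with the block and 0 to 10 without 1 library. The difference between strokes (0 genes) was 1 with no filter on low counts, 238 in DESeq2 and 0 to 970 without 1 library, where 970 was without MCAO replicate 2, with 0 members in each of these fits. Between shams the count of genes (3625) was 6365 with the compared groups alone and 2334 to 2662 without 1 library. The count of members (5) was 3 with DESeq2 size factors, 3 with no filter, 17 with the compared groups alone and 3 in each fit without 1 library. No named member that passed reversed its direction in these settings. The causes were not tested. Fewer samples enter the fits of compared groups alone and without 1 library. Fits of compared groups alone also take the spread from those groups only, and between shams they gave more calls. The block fit estimates more terms from the same libraries. Same-numbered stroke and sham libraries had deviations correlated by 0.04 to 0.15, and the other pairs by -0.14 to 0.09. At the pontine site every same-numbered value (0.05 to 0.15) exceeded every other (-0.14 to 0.01). Whether the numbers pair samples is therefore not settled. The main fit took no pairs, and the unnumbered MCAO library was paired with none by its label.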

Other observations

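Cystatins inhibit cathepsins. Of 4 tested, 2 rose after MCAO (Cst7 and Cstb) and 1 after pontine infarction (Cst7). Cst3, cystatin C, with the highest CPM of the 4, had 796, 1176 and 715 CPM after MCAO against 1818, 1402 and 1457 CPM in sham LN. Its MCAO libraries lay below all shams, as did those of 18.7% of all tested genes, and the change did not pass (log2 -0.80, edgeR adjusted p = 0.0540). After pontine infarction Cst3 had 1678, 2065 and 3275 CPM against 2035, 1849 and 2432 CPM in sham PN, groups that overlapped. The summed level of the list was 785 to 1218 CPM after MCAO against 1430 to 1848 CPM in sham LN. After pontine infarction it was 1733 to 3357 CPM against 1894 to 2479 CPM in sham PN, ranges that overlap. Cst7, cystatin F, an inhibitor of immune cell cathepsins, had 37.1, 2.17 and 16.5 CPM after MCAO against 0, 0 and 0.0765 CPM in sham LN, and 13.2, 1.38 and 6.35 CPM after pontine infarction against 0, 0 and 0.144 CPM in sham PN. The stroke libraries lay above all shams at both sites. With 2 counts over sham LN and 4 over sham PN, Cst7 was kept for testing only through the stroke libraries, so its calls are no independent support. Cstb, cystatin B, rose after MCAO (log2 change 1.26 ± 0.32, edgeR adjusted p = 0.0226).

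Receptors and enzymes that deliver hydrolases to the lysosome were read as a list of 7. After MCAO 2 rose, the mannose 6-phosphate receptors M6pr (log2 change 0.80 ± 0.23, edgeR adjusted p = 0.0348) and Igf2r (0.81 ± 0.23, edgeR adjusted p = 0.0341), and after pontine infarction 0 passed. Igf2r had 163, 83.0 and 142 CPM after MCAO against 69.4, 82.6 and 68.3 CPM in sham LN, so MCAO replicate 2 lay just above the highest sham. Sort1, sortilin, which sorts proteins to the lysosome, had 435, 948 and 618 CPM after MCAO against 1079, 1191 and 973 CPM in sham LN. Its MCAO libraries lay below all shams, as did those of 18.7% of all tested genes, and the change did not pass (log2 -0.70, edgeR adjusted p = 0.0525). After pontine infarction Sort1 had 484, 526 and 493 CPM against 523, 584 and 603 CPM in sham PN, groups that overlapped. The summed level of the list was 789 to 1206 CPM after MCAO against 1203 to 1453 CPM in sham LN, ranges that overlap.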
